A study of Mus musculus with 2 samples.

Results

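The genes described here are 10 mouse genes that mast cells transcribe, followed in the embryonic ureter with and without the nuclear receptor gene Pparg. They were chosen by name, as genes of mast cell granule proteases (Cpa3, Cma1, Mcpt4, Tpsb2, Tpsab1), of receptors (Kit, Ms4a2, Fcer1a), of histamine synthesis (Hdc) and of a transcription factor (Gata2), out of 29982 genes on the arrays. They were represented by 11 of 39429 probes, 1 per gene except Tpsb2, which had 2. Pools of ureters from mouse embryos at E16.5 (embryonic day) on an NMRI background were compared on 2 dual-colour oligonucleotide arrays, each of which held 1 control pool and 1 conditional mutant pool. Array 1 held pools of female embryos and array 2 pools of male embryos. By the labels the mutants were Pax2-cre/+; Pparg(fl/fl), called Pparg-cKO, and the controls Pparg(fl/?), that is, littermates without cre in which the question mark leaves the second allele open. Cre activity of this line is described for epithelia of the ureter and of the duct that gives rise to it and for the kidney's collecting ducts, and blood-derived cells are not among the tissues named. The stage label of the second channel gives E14.5 instead of E16.5, and the stage of titles and protocols was used.

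Mast cells arise from blood progenitors that settle in tissues, where they mature under the ligand of the receptor tyrosine kinase KIT. Their granules hold proteases (chymases, tryptases and a carboxypeptidase) bound to heparin-bearing proteoglycan, together with histamine. Cross-linking of IgE on their high-affinity receptor releases the granules. They occur in connective tissue and near epithelia, and the connective-tissue type carries the chymases encoded by Cma1 and Mcpt4, the tryptases encoded by Tpsb2 and Tpsab1, and carboxypeptidase A encoded by Cpa3. Kit is also transcribed in melanocytes and interstitial cells of Cajal and Gata2 in endothelium and other tissues, so that these genes are less particular to mast cells than the proteases.

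The genotype behind each dye was not settled. RNA A is the RNA labelled red on array 1 and green on array 2, and RNA B is the other RNA on each array. The dye labels make RNA A the control and RNA B the Pparg-cKO, whereas the direction that the study's text uses makes RNA A the Pparg-cKO. Each ratio below is therefore given as log2 RNA A over RNA B, and each carries the opposite sign if the RNAs are exchanged. Since the dyes were swapped on the array of the other sex, effects of dye and of sex cannot be told apart. The arrays shared 1 slide and 1 scan. The signals are background-subtracted and dye-normalised spot intensities in arbitrary units, averaged over the replicate spots of a probe. Signals of different probes are not on 1 scale, so a brighter probe does not mean a more abundant transcript. The brightest probe of a list served only to pick the gene to name, and a summed signal is ruled by the brightest probes of its list. Between 80.3% and 80.4% of green and 70.4% of red spots were well above background (a flag of the scanner software), and 0 spots were saturated. Pparg itself had signals of 11295 for RNA A against 7430 for RNA B on the female array (array 1) and of 12888 against 7872 on the male array (array 2). Its log2 ratio was 0.66 ± 0.076 (SD, n = 2 arrays) with a limma adjusted p of 0.615. The place of its probe relative to the deleted exons was not looked up, and its ratio does not show which RNA was mutant. Uroplakin and smooth muscle genes were bright in both RNAs, for example Upk3a with 30472 to 51988 and Acta2 with 39606 to 72555, and sex-linked genes matched the sex label on both arrays.

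The stretches of sequence that matter most here belong to Cpa3 and Cma1, which differed most between the RNAs. Mcpt4, a chymase gene on the same chromosome as Cma1, stayed near background and is shown beside them. Shown first are the 250 bases before the transcription start of these 3 genes, written 5′ to 3′ in the direction of transcription (RefSeq, GRCm38.p6). Capitals mark a GATA motif, the sequence that GATA factors such as GATA2 recognise, searched on both strands as AGATAA, as AGATAG, as TGATAA or as TGATAG, words that cannot overlap from the same first base.
Cpa3, chr3:20242182-20242431, minus strand: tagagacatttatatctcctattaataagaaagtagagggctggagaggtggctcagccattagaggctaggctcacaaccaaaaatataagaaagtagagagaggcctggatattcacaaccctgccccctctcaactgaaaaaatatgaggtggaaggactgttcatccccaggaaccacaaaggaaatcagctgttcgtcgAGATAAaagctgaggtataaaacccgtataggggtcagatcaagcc
Cma1, chr14:55944676-55944925, minus strand: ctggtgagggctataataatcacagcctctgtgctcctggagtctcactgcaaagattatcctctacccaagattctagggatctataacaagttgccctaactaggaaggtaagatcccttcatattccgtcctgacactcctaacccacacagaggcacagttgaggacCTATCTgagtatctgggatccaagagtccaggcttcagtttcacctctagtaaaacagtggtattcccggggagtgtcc
Mcpt4, chr14:56062311-56062560, minus strand: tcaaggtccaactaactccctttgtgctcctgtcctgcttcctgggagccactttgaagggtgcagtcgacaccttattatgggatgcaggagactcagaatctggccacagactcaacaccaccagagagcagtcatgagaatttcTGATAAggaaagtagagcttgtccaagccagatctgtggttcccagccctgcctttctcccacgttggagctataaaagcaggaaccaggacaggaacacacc

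Each of these 3 stretches held 1 match. It lay 46 to 41 bases before the start in Cpa3 (AGATAA), 79 to 74 bases before it in Cma1 (CTATCT, the reverse strand of AGATAG) and 103 to 98 bases before it in Mcpt4 (TGATAA). Upstream stretches were at hand for 8 of the 10 genes, and 6 of those (Cpa3, Cma1, Mcpt4, Ms4a2, Fcer1a and Hdc) held at least 1 match, while Kit and Gata2 held 0. Over all 32851 upstream stretches of the same length, 26.5% held a match. A match is a stretch of letters and no measured binding site. It was present in Cpa3 and Cma1, which differed between the RNAs, and in Mcpt4, Ms4a2, Fcer1a and Hdc, which did not pass the counts below.

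The probes read short stretches of the transcripts. Shown are the first 30 of 60 bases of the probes for Cpa3, for Cma1 and for both Tpsb2 probes, which gave different ratios. Positions are those of the array files (mm9).
Cpa3, chr3:20115674-20115733, minus strand: gccaagtatatcctcaagaatacttcctaa
Cma1, chr14:56561491-56562550, minus strand: tcactgtgcgggaaggtctataacagtcct
Tpsb2 brighter probe, chr17:25504819-25504878, plus strand: gggctgtgctgtctttaactcactgcttcc
Tpsb2 dimmer probe, chr17:25504493-25504552, plus strand: ttttcccattgtccatgatggcatgctgtg

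The 60 bases of the Cma1 probe spanned 1060 bases of the genome. The starts of both Tpsb2 probes lay 326 bases apart. In the genome, the Cma1 and Mcpt4 probes lay 117.1 kb apart on chromosome 14 and the dimmer Tpsb2 probe 23.9 kb from that of Tpsab1 on chromosome 17. Of the 11 probes, 1 shared a run of 20 bases with a probe of another gene, namely Mcpt4 with the chymase pseudogene Mcpt-ps1.

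The question was which transcripts differ between control and Pparg-cKO ureters, here asked of the mast cell genes. Cpa3 and Cma1 favoured RNA A on both arrays, that is, their probes were brighter there, Cpa3 by 2.53-fold and Cma1 by 2.13-fold on average. Kit, Hdc and the brighter Tpsb2 probe had mean log2 ratios of 0.19 or less, Gata2 went past 1.5-fold on the female array alone, in favour of RNA B, Fcer1a went past it on the male array alone, and Mcpt4, Tpsab1 and Ms4a2 were near background. A first count, which has no p-value, took genes whose ratio reached 1.5-fold the same way on each array and whose brighter RNA reached a signal of 100 on each. Of the 10 genes, 2 (Cpa3 and Cma1) passed it in favour of RNA A and 0 in favour of RNA B, against 0.157% and 0.23% of all 29982 genes. A second count used limma, a linear model with moderated variances, fitted to the log2 ratios of the 21429 genes whose probe was well above background in the same RNA (A, B or both) on each array. It called 1 of the 7 mast cell genes tested (Cpa3) in favour of RNA A and 0 in favour of RNA B at an adjusted p of 0.05, against 0.126% and 0.187% of all genes tested. At an unadjusted p under 0.05 the counts were 2 and 0, against 1.68% and 2.1% of all genes tested. The smallest two-sided p that an exact sign-flip test allows for any gene on 2 arrays is 0.5. A difference in the number of mast cells and a difference in RNA per cell cannot be told apart in whole ureters.

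**Figure D1:**
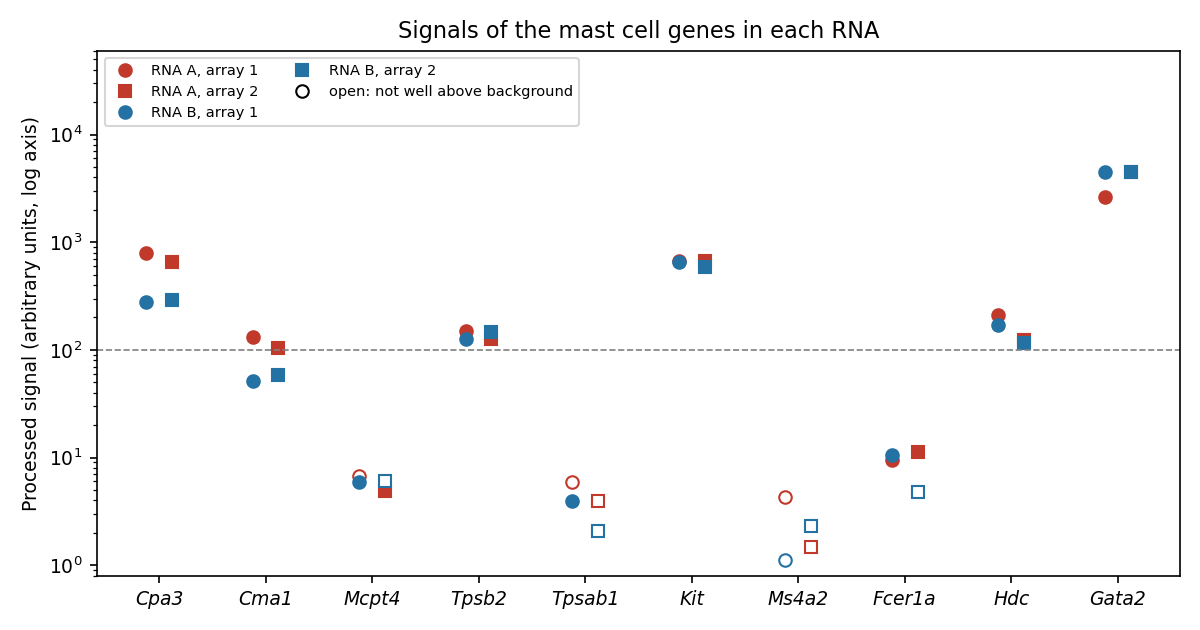
Processed signal (log axis, arbitrary units) of each mast cell gene in RNA A (red) and RNA B (blue) on array 1 (circles) and array 2 (squares), with open symbols where the probe was not well above background and a dashed line at a signal of 100. Cpa3 and Cma1 are separated by RNA on both arrays, while Kit, Hdc and Tpsb2 lie close together and Mcpt4, Tpsab1 and Ms4a2 lie below 10.

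Cpa3 encodes carboxypeptidase A of mast cell granules. Its signal was 795 for RNA A against 281 for RNA B on the female array, and 651 for RNA A against 288 for RNA B on the male array. The spots of Cpa3 did not overlap between the RNAs. The 4 spots per array ran from 785 to 801 against 274 to 285 on the female array. On the male array they ran from 636 to 667 against 275 to 297. Spots of 1 array are repeat readings of the same pools. Those of Kit did not overlap on either array either, at log2 ratios of 0.018 and 0.17. How many probes had separate spots was not counted. The log2 ratio of Cpa3 was 1.5 on the female array and 1.17 on the male array, with a mean of 1.34 ± 0.23 (SD, n = 2). This mean ranked 25 of the 21429 genes tested, counted from the gene most in favour of RNA A, and its limma adjusted p was 0.0465. The call was close to the threshold, and across 11 fits, that reported included, the adjusted p of Cpa3 ran from 0.0353 to 1.00 while its mean log2 ratio stayed between 1.27 and 1.34.

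Cma1 encodes a chymase, a serine protease of the granule. Its signal was 131 for RNA A against 51.0 for RNA B on the female array, and 104 for RNA A against 58.9 for RNA B on the male array. RNA A was again above RNA B in every spot, with 123 to 140 against 49.0 to 55.5 on the female array and 98.7 to 110 against 55.2 to 63.6 on the male array. The log2 ratio was 1.36 on the female array and 0.83 on the male array, with a mean of 1.09 ± 0.38 (SD, n = 2). It ranked 51 of the genes tested, but at 0.136 its limma adjusted p missed the threshold. On the male array the RNA A signal of Cma1 lay just above 100, so that it was the closest of the 2 genes to the edge of the first count, and at a signal of 200 it no longer passed.

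Tpsb2 encodes a tryptase, and its probes disagreed. The brighter probe had a signal of 151 for RNA A against 126 for RNA B on the female array, and of 125 for RNA A against 148 for RNA B on the male array. RNA A was thus higher on the female array, with overlapping spots, and lower on the male array, with spots that did not overlap. The log2 ratios were 0.27 and -0.24, the mean was 0.013 ± 0.36 (SD, n = 2), and its limma adjusted p was 1.00. The dimmer probe had signals of 58.9 for RNA A against 35.2 for RNA B on the female array and of 43.2 and 21.5 on the male array. Here RNA A was above RNA B in all 3 kept spots of both arrays, the log2 ratios were 0.74 and 1.01, and the mean was 0.87 ± 0.19 (SD, n = 2). Each gene was represented by its brightest probe in the tests, so the dimmer probe had no test of its own, and with the mean of both probes the log2 ratio of Tpsb2 was 0.44. Which exons the probes lie in was not analysed here.

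The remaining proteases were near background. Mcpt4 encodes a second chymase of connective-tissue mast cells. Its signals were 6.78 for RNA A against 5.93 for RNA B on the female array and 4.93 and 6.05 on the male array, of which only RNA B on the female array and RNA A on the male array were well above background. Tpsab1 encodes the other tryptase. Its signals were 5.95 and 3.95 on the female array and 3.95 and 2.08 on the male array, and only RNA B on the female array counted as well above background, with 50% of its spots. Neither was tested, and no ratio is given for them.

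**Figure D2:**
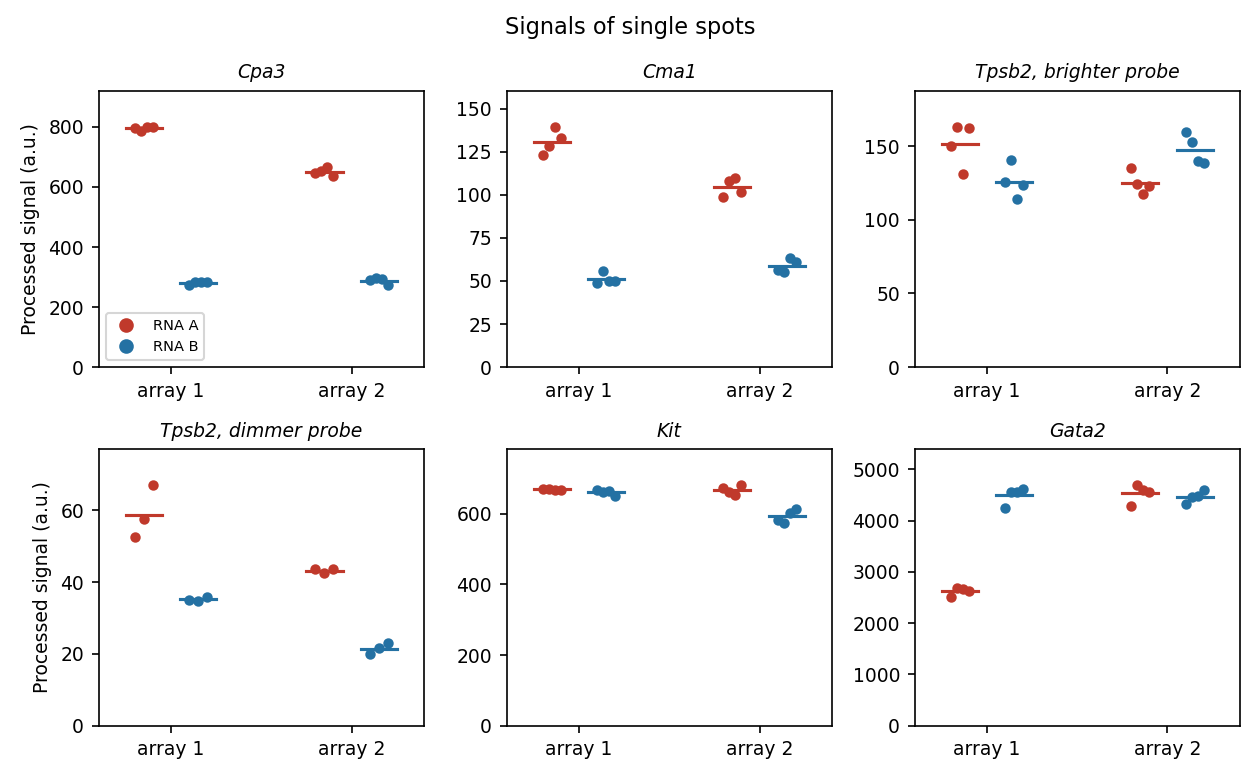
Processed signal (arbitrary units, axes from 0) of every kept spot in RNA A (red) and RNA B (blue) on both arrays for 6 probes, with a bar at the geometric mean. The spots of Cpa3, of Cma1 and of the dimmer Tpsb2 probe are higher in RNA A on both arrays, those of the brighter Tpsb2 probe change order between arrays, and those of Gata2 separate on array 1 but not on array 2.

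The receptors did not pass either count. KIT, the receptor for stem cell factor, carries survival signals of mast cells. Its gene had a signal of 669 for RNA A against 661 for RNA B on the female array, and of 667 and 593 on the male array. The log2 ratios of 0.018 and 0.17 gave a mean of 0.094 ± 0.11 (SD, n = 2) and a limma adjusted p of 1.00, and the small ratio on the female array turned to the other sign with normexp background correction and loess together and with centring on all probes. Fcer1a and Ms4a2 encode the alpha and beta chains of the high-affinity IgE receptor. Fcer1a had signals of 9.57 for RNA A against 10.6 for RNA B on the female array and of 11.2 and 4.77 on the male array, the last of which was not well above background. Its log2 ratios of -0.15 and 1.23 pointed in opposite directions, and their mean of 0.54 ± 0.98 (SD, n = 2) had a limma adjusted p of 1.00. Ms4a2 had signals of 4.28 and 1.11 on the female array and of 1.47 and 2.34 on the male array, none of them well above background, and was not tested.

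Hdc encodes histidine decarboxylase, which makes histamine. Its signal was 211 for RNA A against 171 for RNA B on the female array, and 124 for RNA A against 117 for RNA B on the male array. The RNAs were separate in their spots on the female array and overlapped on the male array, and both RNAs were brighter on the female array. The log2 ratios of 0.30 and 0.084 gave a mean of 0.19 ± 0.15 (SD, n = 2) with a limma adjusted p of 1.00.

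Gata2 encodes a zinc finger transcription factor required in mast cell progenitors. Its signal was 2620 for RNA A against 4491 for RNA B on the female array, and 4533 for RNA A against 4461 for RNA B on the male array. Of these 4 values, RNA A on the female array stood below the other three, and the spots overlapped on the male array. The log2 ratio was -0.78 on the female array and 0.023 on the male array, with a mean of -0.38 ± 0.57 (SD, n = 2) and a limma adjusted p of 1.00. The ratio on the male array turned negative with a loess normalisation and with centring on the genes tested.

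Across the 7 genes tested, 4 (Cpa3, Cma1, Kit and Hdc) favoured RNA A on both arrays and 0 favoured RNA B, against 21.6% and 17.4% of all genes tested. The other 3 (Tpsb2 by its brighter probe, Fcer1a and Gata2) pointed in opposite directions on the arrays. Of the 7, Fcer1a was tested through RNA A alone. The median of the mean log2 ratios was 0.19, beside 0.0067 over all genes tested.

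**Figure D3:**
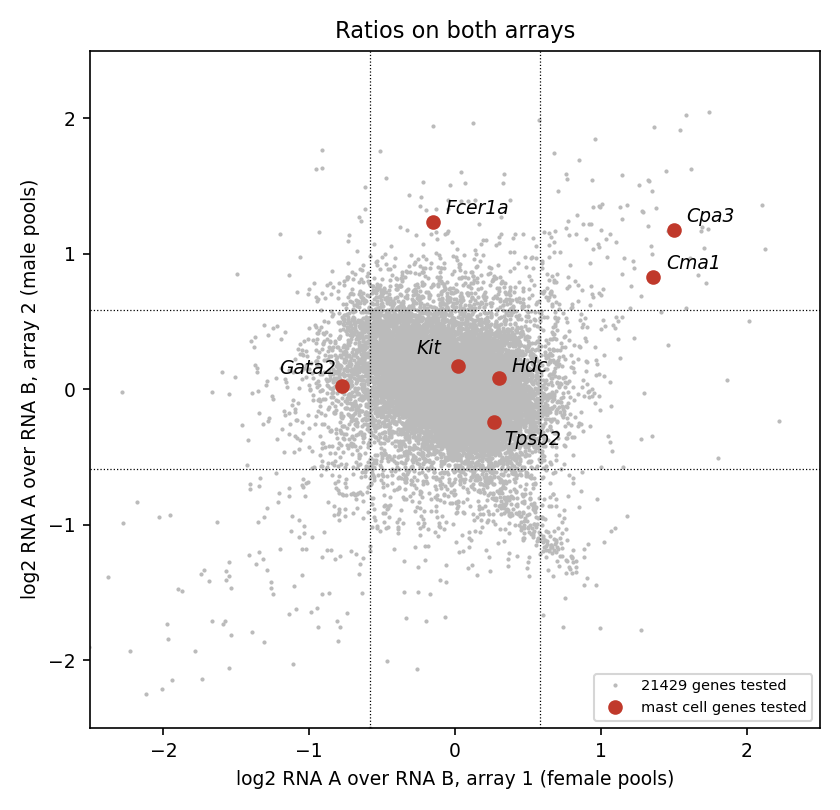
The log2 ratio of RNA A over RNA B on array 1 (female pools, x axis) against array 2 (male pools, y axis) for the 21429 genes tested (grey) and the 7 mast cell genes tested (red), with dotted lines at 1.5-fold (16 genes lie outside the axes). Cpa3 and Cma1 lie beyond 1.5-fold on both axes, Fcer1a on array 2 alone and Gata2 on array 1 alone.

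Other genes of mast cell biology were taken from 6 lists of 53 genes in all. Of these, 42 were tested. None passed the first count in either direction, and limma called 1, Mcpt8, as brighter in RNA A. Of the 42 genes, 20 (47.6%) favoured RNA A on both arrays and 5 (11.9%) favoured RNA B, against 21.6% and 17.4% of all genes tested. However, 5 of the 20 (Mcpt8, Tpsg1, Prss34, Lcp2 and Adora3) were well above background on both arrays in RNA A alone. They were thus tested only through the RNA in which they were brighter. Over the 37 genes well above background in both RNAs on both arrays, 15 favoured RNA A, 5 favoured RNA B and 17 pointed in opposite directions, and the median mean log2 ratio was 0.13.

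The list of other granule proteases held 9 genes, of which 5 were tested. Of these, Cma2 and Ctsg were well above background in both RNAs on both arrays, with mean log2 ratios of 0.094 and 0.10, whereas Tpsg1, Prss34 and Mcpt8 were tested through RNA A alone (all but Mcpt8 were named after their values were seen). Mcpt8 encodes a protease that is best known from basophils. Its signals were 19.3 for RNA A against 7.44 for RNA B on the female array and 11.1 and 4.38 on the male array, the last of which was not well above background, so that the ratio on the male array was taken against a signal at background. The log2 ratios of 1.37 and 1.34 gave a mean of 1.36 ± 0.025 (SD, n = 2) with a limma adjusted p of 0.0410. The ratio, its small SD and the call therefore rest on dim signals, and the adjusted p of Mcpt8 ran from 0.0329 to 1.00 over the alternatives.

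The list of granule matrix, amine and lipid mediator genes had all 11 genes tested, of which 5 favoured RNA A on both arrays and 2 favoured RNA B. Its brightest genes were Cd63, a granule membrane protein also found on other cells, and Rab27b, a small GTPase of vesicle release. Cd63 had a mean log2 ratio of -0.024 ± 0.056 and Rab27b, with signals of 4156 and 6084 on the female array and 4571 and 5836 on the male array, of -0.45 ± 0.14 (SD, n = 2 for each). Neither passed the limma threshold.

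Of 9 genes of IgE receptor signalling, 8 were tested, 5 favoured RNA A on both arrays (among them Lcp2) and 1 favoured RNA B. Fcer1g, the gamma chain that macrophages share, had signals of 2086 for RNA A against 1535 for RNA B on the female array and of 2006 and 1766 on the male array. Its mean log2 ratio was 0.31 ± 0.18 (SD, n = 2), with a limma adjusted p of 1.00. Plcg2, a phospholipase downstream of the receptor, pointed in opposite directions with log2 ratios of -0.20 and 0.46.

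Of 10 other mast cell surface receptors, 7 were tested. On both arrays, 2 (Adora3 among them) were on the side of RNA A and 2 (Cd200r3 among them) on that of RNA B. The brightest, Enpp3 and Il3ra, pointed in opposite directions on the arrays, with log2 ratios of 0.61 and -0.17 for Enpp3 and of -0.27 and 0.30 for Il3ra. The Mas-related receptor genes Mrgprb1 and Mrgprb2 and the interleukin receptor gene Il9r were the 3 not tested, as neither RNA was well above background on both arrays.

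All 8 genes of mast cell and progenitor transcription factors were tested, and 6 pointed in opposite directions. The exceptions included Lmo2, a partner of GATA factors, with a mean log2 ratio of 0.24 ± 0.016 (SD, n = 2) and a limma adjusted p of 1.00. Stat5b, a signal transducer under KIT and cytokine receptors, had log2 ratios of -0.45 and 0.19.

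Of 6 growth and recruitment factors, 3 were tested. Kitl, the ligand of KIT, had signals of 665 for RNA A against 577 for RNA B on the female array and of 846 and 591 on the male array, so that RNA A was higher on both. Its mean log2 ratio was 0.36 ± 0.22 (SD, n = 2) with a limma adjusted p of 1.00. Il33, an alarmin that acts on mast cells, had log2 ratios of -0.056 and 0.20.

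Markers of other cells were set beside the mast cell genes, and their part in the results was not tested. Over all genes tested, 21.6% favoured RNA A on both arrays and 17.4% favoured RNA B. Of 5 genes of all leukocytes, 3 favoured RNA A on both arrays, and their summed signal was 1864 for RNA A against 1455 for RNA B on the female array and 1811 and 1536 on the male array. The brightest, Coro1a, had a mean log2 ratio of 0.21. Of 8 macrophage genes, 6 favoured RNA A on both arrays and 0 favoured RNA B, with a summed signal of 8996 against 7965 on the female array and 9030 against 8219 on the male array and a median mean log2 ratio of 0.16. The mean log2 ratio of the brightest, Mrc1, was 0.12. Of these 13 genes, 0 passed the first count and 0 the limma threshold, with 1 (Cd52, named after its value was seen) in favour of RNA A at an unadjusted p under 0.05, a level reached by 1.68% of all genes tested in that direction. Of 4 basophil genes, all of them in the lists above, 2 (Mcpt8 and Prss34, tested through RNA A alone) favoured RNA A on both arrays. Cd200r3 (named after its values were seen) favoured RNA B on both and was well above background in both RNAs on both. Its mean log2 ratio was -0.97 ± 0.45 (SD, n = 2) with a limma adjusted p of 0.267. Il3ra was the brightest basophil gene. The 6 neutrophil genes had a median of -0.29, and their brightest, Elane, turned direction between arrays with 0.67 and -1.21. Of 6 lymphocyte genes, 3 were tested, with a median of -0.065, and the brightest was Nkg7 at 0.020.

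Cells that share Kit or Gata2 with mast cells were looked at in the same way. Of 6 melanocyte genes, 5 were tested and all 5 pointed in opposite directions, among them the brightest, Sox10, with a mean log2 ratio of 0.11. Dct was at 18.0 and 3.45 on the female array and at 4.01 and 75.8 on the male array, the widest span of that list, for which it was picked after its values were seen. Of both genes of interstitial cells of Cajal, Ano1 was brighter in RNA B with log2 ratios of -0.70 and -0.48, while Etv1 had a mean near 0 (-0.00035). All 5 endothelial genes pointed in opposite directions, the brightest being Kdr with a mean of 0.036, as did 4 of 5 genes of red blood cells, with Hba-a1 the brightest at 0.0073.

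Genes of the ureter's own tissues were mostly brighter in RNA B. Of 5 urothelial genes, the 4 uroplakin genes favoured RNA B on both arrays and 2 (Upk1a and Upk3a) passed the first count as such. Krt5 favoured RNA A on both arrays, with a mean log2 ratio of 0.47 ± 0.29 (SD, n = 2). The summed signal of the 5 genes was 51315 for RNA A against 82016 for RNA B on the female array. On the male array it was 49696 and 85790. Upk3a alone made up 32480 against 50577 and 30472 against 51988. Of 4 genes of mesenchyme and smooth muscle, 3 favoured RNA B on both arrays, with Acta2 the brightest.

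**Figure D4:**
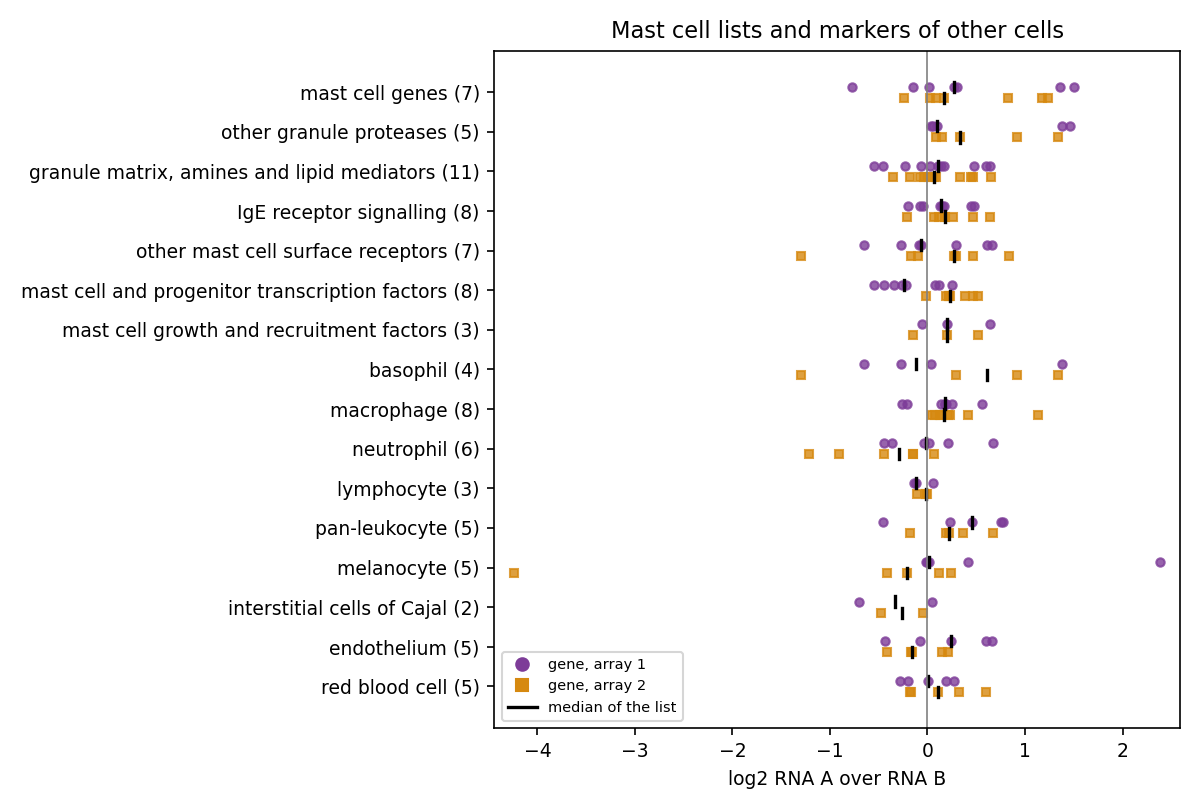
The log2 ratio of RNA A over RNA B of each tested gene on array 1 (violet circles) and array 2 (orange squares), by list, with black bars at the list medians and the number of tested genes in brackets. The medians of the mast cell genes and of the macrophage genes lie above 0 on both arrays. So do those of the other granule proteases, granule matrix genes, IgE receptor signalling, growth factors, pan-leukocyte and red blood cell genes. Most lists hold genes on either side of 0.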

How the data were processed

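Total RNA of pooled ureters was labelled and hybridised to 2 dual-colour arrays. Per the file headers, Agilent Feature Extraction 10.7.3.1 made the deposited intensities, which were background-subtracted, floored near background and dye-normalised by LOWESS. This last step can change ratios of dim probes. The deposited log10 ratios lay within 0.001 of ratios taken from the processed intensities for 88.9% of spots and were not used further. A series table of signed fold values was deposited by the authors as a score. No direction is stated for it beyond sample titles that read Pparg-cKO vs control. The table followed the scanner values as RNA A over RNA B (r = 0.997 over 18716 and 18969 probes). It was used with that direction as an alternative. Read by the titles, it makes RNA A the Pparg-cKO, as the study's text does and unlike the dye labels.

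Control spots (17263 per array) and flagged spots (5705 and 5579) were left out. Log2 signals were averaged over the up to 4 kept spots of a probe, and a gene took its brightest probe. Accessions named 28328 of 39429 probes through RefSeq. A probe was well above background where the scanner's flag held in at least 50% of its kept spots. Log2 ratios were fitted with limma 3.58.1 (intercept, eBayes, Benjamini-Hochberg over 21429 genes). The code was also run on simulated ratios, where recovery of known changes was required only without a dye effect. That run checks the code and does not show how reliable calls from these arrays are. Nothing says that the pools came from separate litters, so p-values measure the spread between the 2 arrays only, whose number limits the precision. GRCm38.p6 served for names and upstream sequence, and mm9 for probe positions.

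The mast cell genes, the lists and the alternatives were chosen with earlier results of these data known. The text names every mast cell gene, the list genes past the first count or called by limma (otherwise the 2 brightest of a list), and the brightest gene of each other cell type with any past the first count. Alternatives changed background correction, normalisation, centring, source, spots, flags, probe rule, thresholds, variance prior and the arrays included. The dimmer Tpsb2 probe and centring on the genes tested were added after seeing the data.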

Additional observations from a re-analysis of the deposited data

Results flagged for a closer look

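Several genes pointed in opposite directions on the array of female pools and the array of male pools although both RNAs were well above background. Whether the arrays differed was not tested, and dye changed with sex. Among the mast cell genes, the log2 ratio of RNA A over RNA B of the brighter Tpsb2 probe was 0.27 on array 1 and -0.24 on array 2. The dimmer Tpsb2 probe favoured RNA A on both arrays, with log2 ratios of 0.74 and 1.01. The log2 ratio of Gata2 was -0.78 on array 1 and 0.023 on array 2. Among the genes of the granule and of IgE receptor signalling, Cd63 had log2 ratios of -0.064 and 0.016 and Plcg2 of -0.20 and 0.46. Among the surface receptors, Enpp3 had log2 ratios of 0.61 and -0.17 and Il3ra of -0.27 and 0.30. Stat5b had log2 ratios of -0.45 and 0.19, and Il33 of -0.056 and 0.20.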

How the results depend on the processing

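Of the recomputed values, 180 were counted as unchanged or close, 30 as moved, 6 as losing the limma threshold and 3 as turning sign. Log2 ratios that turned sign with 1 array left out were counted among the 180. Without array 1 these were Tpsb2 at -0.24 and Gata2 at 0.023, and without array 2 Fcer1a at -0.15. The same held for Ms4a2 without array 1 and for Mcpt4 without array 2 and with the median over spots, both genes being near background. Cpa3 and Cma1 passed the first count under all alternatives that changed normalisation, centring, source, spots or probe rule and with either array left out, whereas 1 gene (Cpa3) passed at a signal of 200 and at 2-fold on both arrays. Without an intensity threshold, Tpsab1 passed as well. For RNA B, 0 to 1 mast cell genes passed with an array left out, Gata2 passing without array 2. The limma call of Cpa3 was lost, leaving 0, in 7 settings. The mean log2 ratio of Cpa3 and its limma adjusted p were 1.27 and 0.178 with normexp and loess, 1.33 and 0.0775 with loess, 1.32 and 0.115 with centring on all probes, 1.33 and 0.922 with the authors' table, 1.33 and 0.0530 with the median over spots and 1.34 and 0.0602 with flagged spots kept, and the range over all settings was 0.0353 to 1.00. The cause was not tested. Without the filter on dim probes the call was lost too. With 1 array left out, the mean ran from 1.17 to 1.5 for Cpa3 and from 0.83 to 1.36 for Cma1, and limma could not be run. The number of mast cell genes brighter in RNA B on both arrays was 1 with loess and with centring on the genes tested, and 1 to 2 with an array left out. Tpsb2 turned to -0.012 with normexp and loess and to -0.00076 with centring on all probes, and Fcer1a to -0.012 with the authors' table. Of the companion genes, 4 (Adora3, Gzmb, Mcpt8 and Mrgprb2) passed in favour of RNA A without an intensity threshold, 2 (Adora3 and Mcpt8) with well above background in its place, and 1 to 4 with an array left out. In favour of RNA B, 1 (Cd200r3) passed at a signal of 50, without a threshold and with well above background, and 0 to 1 with an array left out. The companion call by limma (Mcpt8) fell to 0 with normexp and loess, loess, centring on all probes, the authors' table, the median over spots and flagged spots kept, and Mcpt8 also missed the limma threshold with an intensity trend in the variance prior (adjusted p of 0.0511) and without the filter on dim probes (1.00), in a range of 0.0329 to 1.00. Over all genes, limma called 27 in favour of RNA A and 40 of RNA B. The counts were 1 and 0 with normexp and loess and with centring on all probes, 8 and 20 with loess, 0 and 0 with the authors' table, 16 and 37 with the median over spots, and 15 and 30 with flagged spots kept. Each ratio already sets both RNAs of an array against each other, so the limma fit was paired by array. Dim signals limited Mcpt4, Tpsab1, Ms4a2 and Fcer1a.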
